A study of Homo sapiens with 4 samples.

Results

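A total of 10041 distal acetylation sites in MHCC97L cells had no summit of either H3K4 methylation mark nearby. They were chosen by summit positions alone: an H3K27ac summit over 2500 bp from the start and end of every RefSeq gene of any type, with no H3K4me1 summit and no H3K4me3 summit within 1000 bp. They made up 23.1% (95% Wilson interval 22.7 to 23.5) of the 43450 distal H3K27ac summits, which came from 69108 H3K27ac summits on chromosomes 1 to 22 and X without chromosome 13. The share depended on the window, at 38.9% with 500 bp and 13.6% with 2000 bp, and was 11.4% among summits with a score of at least 10. The sites are called H3K4-free sites here. The name says that no summit of those marks was called within the window, not that the nucleosomes carried no methylation. The intervals given are for counting error only.

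The data are chromatin immunoprecipitation with sequencing (ChIP-seq) of MHCC97L cells that had received no treatment. MHCC97L is an established line of human liver cancer cells, labelled wild-type and grown in medium with 10% fetal bovine serum. H3K27ac, H3K4me1 and H3K4me3 had 1 library each, and an input library was not analysed here. The H3K27ac, H3K4me1 and H3K4me3 lists held 70028, 86366 and 46078 summits on the chromosomes named, chromosome 13 included, and the read depth is unknown. A summit is the position of the highest signal in a called peak, and its score is the authors' −log10 value, which ranks summits within 1 list. With 1 library per mark, no difference was tested, and the members are described.

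Acetylation of histone H3 at lysine 27 is placed by the acetyltransferases EP300 and CREBBP and is found at active promoters and active enhancers. Monomethylation of lysine 4, placed at enhancers mainly by KMT2C and KMT2D, marks enhancers and the flanks of promoters, and trimethylation of lysine 4, placed by the SETD1 and KMT2A/KMT2B complexes, marks promoters. An active enhancer is usually described by H3K27ac together with H3K4me1, so acetylated sites without that partner are a class that this scheme does not name.

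A gene's outer limits do not show its inner start sites, so the sites were also placed against the starts in the RefSeq promoter table (GRCh38.p14). That table covers 21 of the 22 chromosomes used, and so 9514 of the H3K4-free sites. Of these, 122 (1.28%, 1.08 to 1.53) lay within 1000 bp of such a start, and 22 lay inside the 300 bp window of a start, which runs from 250 bp before it to 50 bp after it. The share was 0.777% (0.663 to 0.910) of the sites with H3K4me1 only and 16.2% (15.1 to 17.3) of those with H3K4me3 only. An H3K4me3 summit lay within 2000 bp of 77 of the 122 (63.1%), against 1017 of all H3K4-free sites (10.1%), and 35 of the 122 sites had a start that was itself within 1000 bp of an H3K4me3 summit. The median score of the 122 sites was 10.8.

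The start windows beside 4 of the 12 highest-scoring of these sites are printed because they show the range of sequence found there. They were chosen after their values were seen. RARB (chr3:25428013-25428312, plus strand) encodes retinoic acid receptor beta, and the capitals mark a direct repeat of the retinoic acid receptor half-site at bases 199 to 214. TXNRD1 (chr12:104286782-104287081, plus strand) encodes thioredoxin reductase 1, an antioxidant enzyme, and the capitals mark an antioxidant response core at bases 149 to 157 and GC boxes at 44 to 49 and 178 to 183. TNPO1 (chr5:72847889-72848188, plus strand) encodes the nuclear import receptor transportin 1, and the capitals mark an AP-1 letter match at bases 232 to 238. SOS1 (chr2:39121002-39121301, minus strand) encodes an exchange factor that activates RAS, and its window, which contains the acetylation summit, had none of the motifs searched. Each is given 5′ to 3′ on the strand of its gene.
RARB: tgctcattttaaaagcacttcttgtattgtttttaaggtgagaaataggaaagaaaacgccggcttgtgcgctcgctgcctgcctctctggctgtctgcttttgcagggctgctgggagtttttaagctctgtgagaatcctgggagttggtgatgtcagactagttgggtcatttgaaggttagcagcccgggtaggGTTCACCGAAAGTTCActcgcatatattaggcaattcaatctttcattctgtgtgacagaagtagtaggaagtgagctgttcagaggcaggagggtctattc
TXNRD1: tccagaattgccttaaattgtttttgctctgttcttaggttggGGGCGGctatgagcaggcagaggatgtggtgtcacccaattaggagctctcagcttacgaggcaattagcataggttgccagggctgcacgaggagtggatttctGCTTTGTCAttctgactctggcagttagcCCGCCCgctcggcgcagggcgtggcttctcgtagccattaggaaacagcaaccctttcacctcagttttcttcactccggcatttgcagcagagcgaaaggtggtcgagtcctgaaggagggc
TNPO1: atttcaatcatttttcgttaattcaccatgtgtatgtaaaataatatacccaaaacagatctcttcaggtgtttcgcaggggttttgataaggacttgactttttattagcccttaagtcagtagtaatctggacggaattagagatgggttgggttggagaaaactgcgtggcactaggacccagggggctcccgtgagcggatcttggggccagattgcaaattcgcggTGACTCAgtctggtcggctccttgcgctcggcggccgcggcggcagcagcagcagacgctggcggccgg
SOS1: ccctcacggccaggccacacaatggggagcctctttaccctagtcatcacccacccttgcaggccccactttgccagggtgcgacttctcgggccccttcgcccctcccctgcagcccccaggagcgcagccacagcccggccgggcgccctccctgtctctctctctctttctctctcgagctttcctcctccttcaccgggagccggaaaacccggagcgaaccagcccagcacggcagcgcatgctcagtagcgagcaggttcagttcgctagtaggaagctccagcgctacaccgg

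The summit beside the RARB start scored 85.8 and lay 154 bp downstream of it, with the nearest H3K4me1 and H3K4me3 summits 1388 and 1381 bp from the acetylation summit. The summit beside the TXNRD1 start scored 154 and lay 157 bp downstream, with H3K4me1 at 1390 bp and H3K4me3 at 2327 bp. The TNPO1 summit scored 57.4 and lay 126 bp downstream, with H3K4me1 at 2363 bp and H3K4me3 at 1058 bp. The SOS1 summit scored 70.2 and lay 185 bp before the start, with H3K4me1 at 1006 bp and H3K4me3 at 1436 bp. All 4 summits sat close to a transcript start that is not one of the outer limits of a gene. This follows from how they were chosen, near a start but over 2500 bp from every gene limit.

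Motifs were searched on both strands of the 110 different start windows beside H3K4-free sites and of all 34681 windows in the table. An AP-1 site (TGANTCA), the binding site of JUN and FOS family dimers, was in 12 of the 110 windows (10.9%) and in 7.70% of all windows, against 22.1% of the 131 windows beside sites with H3K4me1 only and 8.50% of the 553 beside sites with H3K4me3 only. A GC box (GGGCGG) was in 46.4% of the 110 windows and 45.0% of all, and the antioxidant response core (TGACNNNGC), which NRF2 is known to bind and which can overlap an AP-1 site, was in 12.7% and 13.4%. The retinoic acid repeat (GTTCA, 6 bases of any kind, then GTTCA again) was in 2 of the 110 windows, those of RARB and of the autophagy gene MAP1LC3C, in 2 of the 553 beside sites with H3K4me3 only (0.362%, at PTPRA and PHF8), in none beside the other classes and in 20 of all windows (0.0577%). The ratio of observed to expected CpG had a median of 0.459 in the 110 windows, 0.270 beside sites with H3K4me1 only, 0.814 beside sites with H3K4me3 only and 0.578 in all windows. By these counts the start windows of H3K4-free sites stood between those of the H3K4me1 and the H3K4me3 classes in CpG content, and their AP-1 share was 10.9% against 22.1% in the H3K4me1 class. A letter match is a description and not a bound site. The motifs were added after values were seen, so these shares, that of the retinoic acid repeat with RARB among them, are no measure of enrichment.

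The H3K27ac scores of the H3K4-free sites were the lowest of the 4 distal classes by their median, which was 5.00 (quartiles 3.49 and 7.63, range 1.33 to 171), against 6.51 for the 20742 summits with H3K4me1 only, 11.5 for the 4451 with H3K4me3 only and 13.5 for the 8216 with both. Scores of 10 or more were found at 35.5% of all distal summits and at 1755 H3K4-free sites (17.5%, 16.7 to 18.2). The corresponding shares were 31.3% with H3K4me1 only, 54.0% with H3K4me3 only and 58.1% with both. Scores of at least 100 were found at 14 H3K4-free sites, 90 sites with H3K4me1 only, 60 with H3K4me3 only and 197 with both. Few of the strongest acetylated sites thus lacked an H3K4 summit, but some did.

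The same order appeared when all distal summits were divided by score into 5 groups of equal number. H3K4-free sites were 34.2% (33.2 to 35.2) of the lowest group, 30.5%, 25.7% and 17.0% of the next ones and 8.25% (7.69 to 8.85) of the highest. Summits with both H3K4 marks went the other way, from 10.1% of the lowest group to 37.2% of the highest. The scores took only 1005 distinct values over the 10041 sites, and 714 sites shared the score 4.57, so neighbouring ranks are often ties.

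**Figure D1:**
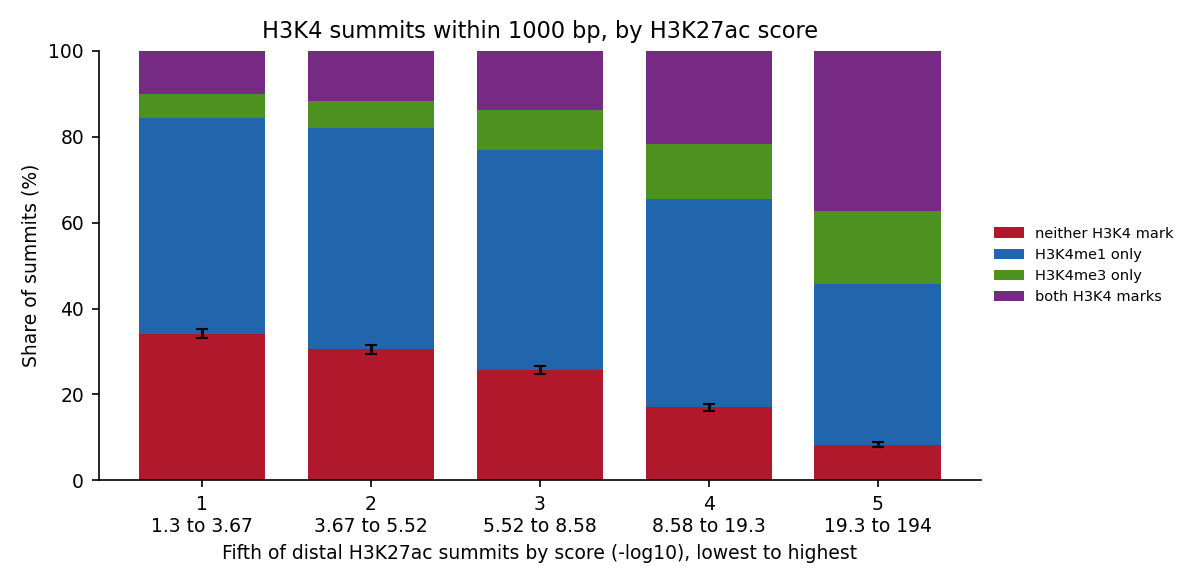
Shares of distal H3K27ac summits (%, vertical axis) by H3K4 summits within 1000 bp, for 5 equal groups by H3K27ac score (−log10, horizontal axis); bars are counts of 1 library and the black lines 95% Wilson intervals of the share with neither mark. The red part with neither H3K4 mark is 34.2% in the lowest group and 8.25% in the highest.

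The 1000 bp limit cut through a continuous range of distances. There were 358 H3K4-free sites with their nearest H3K4 summit at most 50 bp beyond the window (median score 5.31), and 424 distal summits at 950 to 1000 bp (median score 5.05) that the rule left out. The highest-scoring sites just outside the window lay nearest EIF3H (112.9, nearest H3K4 summit at 1036 bp), OPA1 (108, 1008 bp), MSN (95.1, 1032 bp), MREG (84.1, 1040 bp) and MAT2A (84.0, 1019 bp). The highest-scoring summits just inside it lay nearest MMP20 (132.6, 980 bp), RIN2 (114, 970 bp), PIK3C2B (109, 969 bp), LYZL1 (99.8, 951 bp) and COL18A1 (99.8, 977 bp). Scores on the 2 sides of the limit covered a like range.

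Most H3K4-free sites had an H3K4 summit within 10000 bp. The nearest H3K4me1 summit lay at a median of 3115 bp, the nearest H3K4me3 summit at 13865 bp and the next H3K27ac summit at 1341 bp. In 4111 sites (40.9%) the nearest H3K4 summit was within 2000 bp, and it was H3K4me1 in 83.1% of them. A further 3470 sites (34.6%) had it between 2000 and 10000 bp, and 2460 (24.5%, 23.7 to 25.4) had none within 10000 bp. Of all sites, 479 were over 100000 bp from any H3K4 summit.

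Around the H3K4-free sites H3K4me1 summits were 8.41 times as dense as over the genome at 1000 to 1500 bp, and 5.41 times at 5000 to 10000 bp. H3K4me3 summits were 3.65 and 3.03 times as dense at those distances, and H3K27ac summits 11.1 and 5.38 times. The bins within 1000 bp are empty of H3K4 summits because the rule made them so. Sites with H3K4me1 only had H3K4me1 densities of 13.9 and 6.84 times at the same distances, so both classes lay in H3K4me1-rich surroundings.

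**Figure D2:**
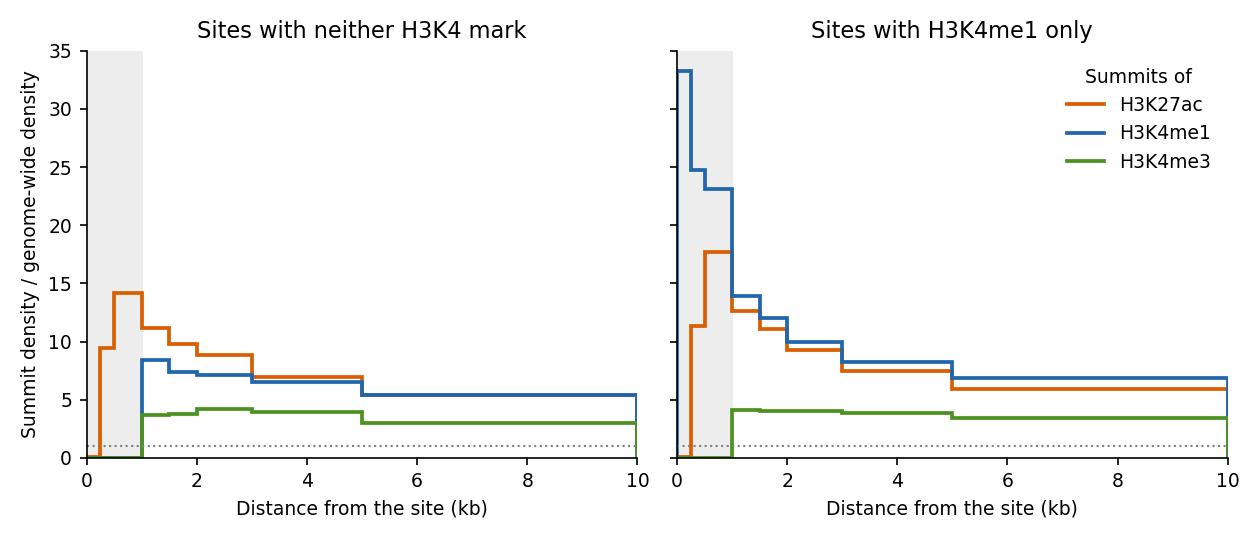
Density of H3K27ac, H3K4me1 and H3K4me3 summits relative to their genome-wide density (vertical axis, 1 at the dotted line) by distance from the site in kb (horizontal axis), around H3K4-free sites (left) and sites with H3K4me1 only (right); the grey band is the window of the rule. Outside the band H3K4me1 stands at 8.41 times in the first bin on the left and 13.9 times on the right.

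The sites far from any H3K4 summit had the highest median score of the 3 distance zones and the largest isolated share. The median score was 4.57 within 2000 bp and also between 2000 and 10000 bp, and 5.81 beyond 10000 bp, where 579 sites (23.5%, 21.9 to 25.3) scored at least 10, against 16.2% and 14.6% in the nearer zones. No other H3K27ac summit lay within 12000 bp of 1133 far sites (46.1%, 44.1 to 48.0), against 2.77% and 5.91% in the nearer zones. The far sites were thus often the only acetylation summit of their surroundings.

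Isolation and clustering divided the whole class. When distal H3K27ac summits within 12000 bp of each other were joined into clusters, 6482 H3K4-free sites (64.6%) fell in 3333 clusters that also held other distal summits. A further 1865 (18.6%) were the only distal summit of their cluster, and 1694 (16.9%) formed 703 clusters of 2 or more made of H3K4-free sites alone. The nearest H3K27ac summit of an H3K4-free site had neither H3K4 mark in 50.5% of cases (49.5 to 51.5), and H3K4me1 only in 29.4%. That neighbour had the higher score in 61.3% of cases (60.3 to 62.2). Among the 4111 sites with an H3K4 summit within 2000 bp, the neighbour had H3K4me1 only in 46.2% and the higher score in 65.4%. Most of those sites were therefore the lower-scoring neighbour of another acetylation summit.

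The highest-scoring H3K4-free site (171) was at chr7:106449220, 163332 bp from NAMPT, which encodes the enzyme that starts the salvage of NAD, with H3K4me1 at 1191 bp and H3K4me3 at 70652 bp. The TXNRD1 site followed, at 154. A site of score 135 lay inside ITPR1, the gene of an inositol trisphosphate receptor that releases calcium from the endoplasmic reticulum, with H3K4me1 at 1311 bp. One of score 134 lay inside KCNN3, the gene of a calcium-activated potassium channel, with H3K4me1 at 1999 bp. Sites inside TBXAS1, which encodes thromboxane synthase, and inside IRAK2, which encodes a kinase of interleukin-1 and Toll-like receptor signalling, scored 120 and 109. Their nearest H3K4 summits were at 1290 and 1136 bp. The remaining 6 of the 12 highest were nearest LOC105369787 (114), EIF3H (112.9), RAB31 (109), RNF19A (108), OPA1 (108) and SHB (103). Of these 12, 11 had an H3K4 summit within 2000 bp, and the SHB site alone did not.

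Among the 2460 sites with no H3K4 summit within 10000 bp, the highest score was that SHB site at chr9:38171328, which lay 102101 bp from SHB, the gene of an adaptor protein of receptor tyrosine kinases. Its nearest H3K4me1 and H3K4me3 summits were 24290 and 55426 bp away, and its next H3K27ac summit 23540 bp away. A site of score 85.8 lay inside FTCDNL1, with H3K4me1 at 21012 bp and another H3K27ac summit at 2180 bp. The site nearest PRR16 (63.9) had H3K4me3 at 210157 bp, H3K4me1 at 891638 bp and another H3K27ac summit at 459 bp. Sites nearest DBNDD1 (62.2), LINC02798 (59.0), SHROOM3 and ARFIP1 (both 57.4), C1QL2 (54.7) and TNS1 (51.0) were also among the 10 highest. SHROOM3 shapes epithelial cells through the apical actin network, and TNS1 links integrins to actin. In 7 of these 10, another H3K27ac summit lay within 3000 bp, while 46.1% of all far sites had none within 12000 bp.

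Of the 4 distal classes, H3K4-free sites had the smallest share inside protein-coding genes. Inside protein-coding genes were 4626 of them (46.1%, 45.1 to 47.0), against 54.3% with H3K4me1 only, 59.8% with H3K4me3 only and 65.4% with both. Another 1224 (12.2%) lay inside lncRNA genes and 4079 (40.6%, 39.7 to 41.6) between genes. The share inside protein-coding genes was 51.5% where an H3K4 summit lay within 2000 bp and 40.9% where none lay within 10000 bp. The median distance to a protein-coding gene boundary was 37375 bp, against 31992 bp for the sites with H3K4me1 only.

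H3K4-free sites inside protein-coding genes often had a host with a marked start. Of 15513 protein-coding genes in the promoter table, 53.2% had both H3K4me3 and H3K27ac within 1000 bp of a RefSeq start. Of 3815 H3K4-free sites inside such tabulated genes, 62.8% (61.3 to 64.3) had a host with a marked start, against 69.7% with H3K4me1 only, 77.6% with H3K4me3 only and 76.4% with both. The share was 67.7% where an H3K4 summit lay within 2000 bp and 54.2% (50.9 to 57.5) where none lay within 10000 bp. The 54.2% of far sites stood near the 53.2% of all genes, but the units differ. The 53.2% counts each gene once, while the other shares count sites, so a gene with many sites enters many times. Among sites inside a single gene, 25.9% lay in the first 25% of the gene from its start, against 24.0% with H3K4me1 only and 34.8% with H3K4me3 only.

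The share of H3K4-free sites differed between chromosomes and moved with the number of H3K4me1 summits called there. On chromosomes 4, 5, 6, 14, 21 and X it was 29.5 to 34.9%, with 0.870 to 0.972 H3K4me1 summits for each H3K27ac summit. On the other 16 chromosomes it was 16.7 to 23.9%, with 0.938 to 1.54. Chromosome 19 stood apart from this order, with a share of 22.5% (20.3 to 24.8) at 0.938. Over the 22 chromosomes the share and the ratio had a Pearson r of −0.88 and a Spearman rho of −0.80, and −0.85 and −0.74 without the 2 chromosomes farthest from the median ratio. These are descriptions, since the H3K4me1 list enters both quantities. Whether the share followed from the number of H3K4me1 calls was not tested.

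**Figure D3:**
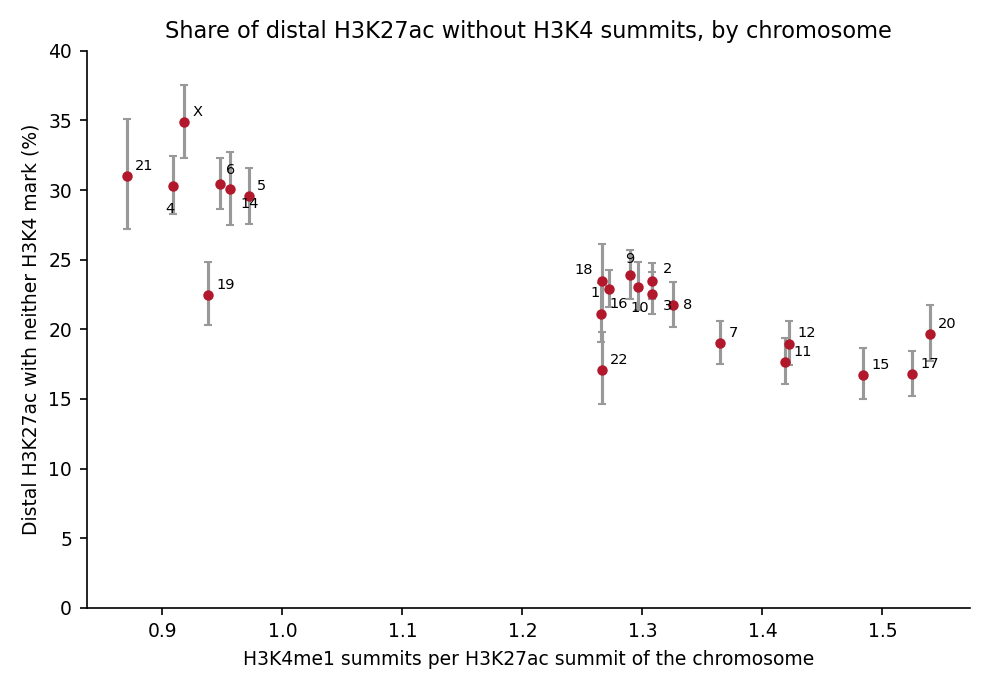
Share of distal H3K27ac summits with neither H3K4 mark (%, vertical axis, with 95% Wilson intervals) against H3K4me1 summits per H3K27ac summit (horizontal axis), 1 point per chromosome, labelled by number. Chromosomes 4, 5, 6, 14, 21 and X sit at 29.5 to 34.9% on the left, chromosome 19 below them at 22.5%, and the others at 16.7 to 23.9%.

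The share also moved with the number of H3K4me1 summits nearby, as the rule itself partly sets, since a site without H3K4me1 around it meets part of the rule. In 1 Mb windows over all chromosomes with no H3K4me1 summit, 372 of 516 distal H3K27ac summits (72.1%, 68.1 to 75.8) were H3K4-free, and in windows with 1 to 5 H3K4me1 summits 50.1% (47.7 to 52.6). The share was 19.4% in windows with 41 to 80 and 19.7% in those with 81 or more. Of the 19 chromosomes with at least 20 distal summits in windows of at most 5 H3K4me1 summits, all 19 had the higher share there (23.8 to 70.8%) than in their other windows (16.4 to 28.5%), a comparison added after seeing the data. Windows with at most 5 held 372 and 809 of the 10041 sites, so most H3K4-free sites were in windows where H3K4me1 was called often. Their share was 21.4% of distal summits when those windows were left out, an alternative chosen after seeing the data.

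**Figure D4:**
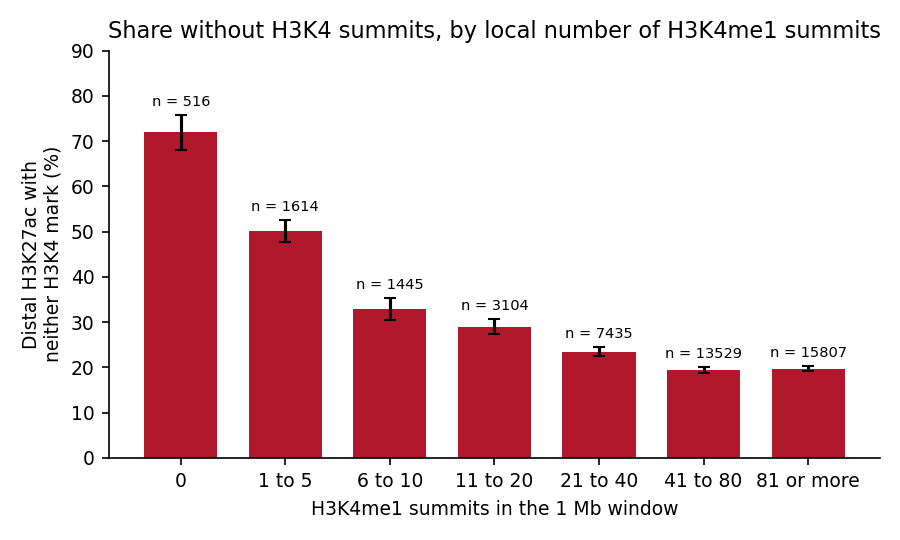
Share of distal H3K27ac summits with neither H3K4 mark (%, vertical axis) by the number of H3K4me1 summits in the same 1 Mb window (horizontal axis); lines are 95% Wilson intervals and n is the number of distal summits. The share is 72.1% in windows without H3K4me1 summits and 19.7% in windows with 81 or more.

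The 6 windows with most H3K4-free sites held 21 to 214 H3K4me1 summits, against 29.6 per Mb over the genome, and 0.382 to 1.16 H3K4me1 summits per H3K27ac summit, against 1.25 over the chromosomes used. These 6 held fewer H3K4me1 summits for each H3K27ac summit than the whole, and 5 of the 6 held more per Mb. The ratio was not low in every window rich in such sites. The next window, on chromosome 1 from 8000001 to 9000000, held 32 of them at a ratio of 1.47. Ranking windows by sites that lack H3K4me1 also partly sets a low ratio. The first, on chromosome 8 from 128000001 to 129000000, downstream of MYC, held 69 among 132 distal summits, beside 103 H3K4me1 summits. The window on chromosome 14 with RAD51B, ZFP36L1 and ACTN1 held 58 of 147, beside 214 H3K4me1 summits. One on chromosome 2 with ABCA12, ATIC, FN1 and MREG held 53 of 98, and one on the X chromosome with KRABD4 and RP2 held 39 of 78. The window with TGFB2 on chromosome 1 held 34 of 94, and that with IRS1 on chromosome 2 held 33 of 52, beside 21 H3K4me1 summits. The median over the 2368 windows with a distal summit was 3.

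Consecutive distal summits that were all H3K4-free formed 5741 runs, of which 3506 were of 1 site. The 232 runs of at least 5 held 1564 sites (15.6%). The longest had 28 sites on the X chromosome from 24242829 to 31831820, a stretch with IL1RAPL1, GK, NR0B1, DMD and the MAGEB genes of the testis, and 2 H3K4me1 summits, or 0.264 per Mb against 29.6 over the genome. Of its sites 23 had no H3K4 summit within 10000 bp, and its highest score was 51.0. The run of 23 sites on chromosome 9 from 19130084 to 21589800 held RPS6, MLLT3, FOCAD and the type I interferon genes, with 3 H3K4me1 summits and 20 H3K4me3 summits. All H3K27ac summits in these stretches numbered 33 over 7588991 bp on the X chromosome and 34 over 2459716 bp on chromosome 9. Over the whole X chromosome H3K4me1 stood at 11.6 summits per Mb. Runs consist of sites chosen for lacking H3K4 summits nearby, so low H3K4me1 counts there are partly set by the rule.

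Other long runs lay in gene-poor stretches. Runs of 20 sites on chromosome 16 (36338947 to 46387937) and 15 on chromosome 19 (23410143 to 27637851, with zinc finger genes such as ZNF254) span the centromeres of those chromosomes and contained no H3K4me1 summit. The run on chromosome 16 had no protein-coding gene and no H3K4me3 summit either, and its highest score was 13.8. Also among the 8 longest were 18 sites on the X chromosome around TSPAN7 and MID1IP1, 14 on chromosome 9 around PTPRD, TYRP1 and LURAP1L, and 14 on the X chromosome around MID1, within 321589 bp.

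Each site was given to the closest protein-coding gene by its start or end, which is a position and not a regulatory link. At least 1 site was assigned to 3869 of 19636 protein-coding genes (19.7%), and at least 1 site with H3K4me1 only to 5093 (25.9%). Among the 3869, 1906 had exactly 1 site, while 122 genes with at least 10 took 1819 sites. Over the 2733 genes with at least 5 distal sites, the median share that was H3K4-free was 18.2%, none was H3K4-free in 626 and all were in 32.

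MYC, the growth-driving transcription factor of 8q24, was the nearest gene of 78 H3K4-free sites among 195 distal summits. Their scores ran from 1.46 to 30.1 with a median of 4.62, and they lay 15962 to 913882 bp from the gene. RAD51B, which acts in DNA repair by homologous recombination, had 64 of 137, all inside the gene, with scores from 2.03 to 22.4. MREG, which encodes melanoregulin, a protein of melanosome transport, had 34 of 51 and scores from 2.06 to 84.1. Sites given to MREG lay 11204 to 249029 bp from it. All those at 104330 bp or more, with the 84.1 site among them, were inside the lncRNA gene LINC00607. IRS1, the insulin receptor substrate, had 22 of 32, with scores from 2.06 to 43.3, and 12 of these had no H3K4 summit within 10000 bp. PIK3R1, the regulatory subunit of phosphoinositide 3-kinase, had 25 of 51, up to a score of 59.0. The others of the 10 with most sites were LOC124903767 (34 of 42, up to 3727859 bp away), KRABD4 (31 of 62), TOMM20 (23 of 60), LYZL1 (22 of 51) and LOC124905977 (21 of 43, a number shared by 1 other gene). The highest score was above 30.1 only at MREG, IRS1 and PIK3R1 among these 10 genes. Median scores ran from 3.67 at LOC124905977 to 6.01 at IRS1, with 4.57 at both RAD51B and PIK3R1, beside 5.00 for all H3K4-free sites. Low-scoring summits were thus common at all 10.

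Counting sites inside genes, 2245 protein-coding genes (11.4%) held at least 1. After RAD51B with 64 came AOPEP and MACROD2 with 23 each, GLIS3 with 19, PPM1H with 18, NSMCE2 and BCAS3 with 17 and PDE4D, DLGAP1 and VMP1 with 16. GLIS3, a zinc finger transcription factor, stood out among them: 19 of its 27 distal summits were H3K4-free and 10 of these had no H3K4 summit within 10000 bp. Per length, VMP1, a membrane protein of autophagy, had 11.9 sites per 100 kb, RAD51B 7.41, and MACROD2, which is over 2 Mb long, 1.12.

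In 8 of the 10 genes with the most distal summits that were all H3K4-free, most sites had no H3K4 summit within 10000 bp. LINC02798, entered in the table as protein-coding, and MID1IP1, a regulator of fatty acid synthesis, had 13 of 13, and ZNF254 had 12 of 12. The nearest gene was far from many of these sites: the LINC02798 sites lay 123674 to 3255453 bp from it and the ZNF254 sites 1218289 to 2466888 bp, and most of them are in the centromeric stretches of chromosomes 1 and 19. IL1RAPL1, a synaptic adhesion protein, MEI4, a meiotic recombination factor, LURAP1L, and GRIK2, a kainate-type glutamate receptor, had 10 of 10 each. PLIN2, the coat protein of lipid droplets in hepatocytes, had 9 of 9, LOC124901178 8 of 8 and ULK2, a kinase that starts autophagy, 7 of 7. The PLIN2 sites scored from 4.57 to 18, 8 of them between chr9:19158509 and chr9:19164519 and 31017 to 37027 bp from the gene, with the nearest H3K4 summits at 2302 to 8312 bp. The IL1RAPL1 sites scored from 2.82 to 38.8 and all lay inside the gene. PLIN2 and ULK2 had no site beyond 10000 bp from an H3K4 summit, unlike the others.

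**Figure D5:**
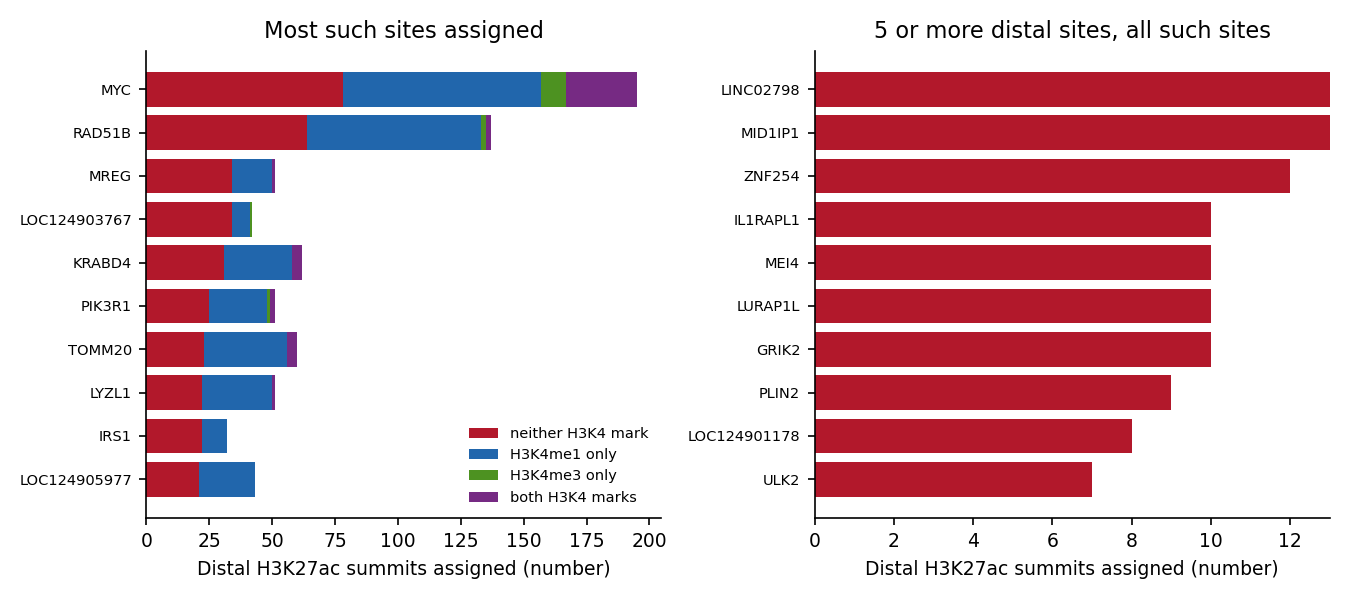
Number of distal H3K27ac summits assigned to a gene (horizontal axis) by H3K4 summits within 1000 bp, for the 10 genes with most H3K4-free sites (left) and the 10 with most distal summits that were all H3K4-free (right); the counts are of 1 library. MYC has 78 H3K4-free sites among 195, and MID1IP1 13 of 13.

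Genes of the liver and of liver cancer were read from 16 lists with 242 genes in all, beside the 19.7% of all protein-coding genes with at least 1 site. Whether the shares go with wide surroundings or many distal summits was not tested, so they are descriptions. Sites with H3K4me1 only were assigned to 25.9% of all protein-coding genes, and to 20% (myeloid and lymphoid) to 75% (AP-1) of list genes. Per distal summit, the H3K4-free share was 23.1% over all. By list it ran from 12.1% (receptor kinases and ligands) to 45.5% (myeloid and lymphoid, 11 distal summits). Of 30 hepatocyte genes, 8 had a site (15 had one with H3K4me1 only). UGT2B7, which conjugates steroids and drugs with glucuronic acid, led with 12 of 21 distal summits, scored from 2.06 to 40.3. The highest lay at chr4:69096656 inside the gene, 182 bp from another RefSeq start, with H3K4me1 at 1325 bp. ABCB11, the bile salt export pump, had 4 of 15, all at scores of at most 7.53. ALB had none, with 3 distal summits, 2 of them with H3K4me1 only.

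Among the liver transcription factors 9 of 22 had a site, with CEBPA at 6 of 12 and GATA6 at 5 of 23. Sites with H3K4me1 only were at 16 of the 22, and 15.7% of the 191 distal summits of the list were H3K4-free. CEBPA, a master regulator of hepatocyte genes, had its 6 sites 12365 to 28077 bp from the gene at scores from 1.57 to 6.92. Of 15 fetal liver and progenitor genes 6 had a site. IGF2BP3, an oncofetal RNA-binding protein, had 6 of 6, at 3639 to 6085 bp on both sides of the gene end that is a RefSeq start. Their scores, in order along the chromosome, were 6.23, 16.7, 19.8, 8.4, 57.4 and 4.57, and H3K4 summits lay 1154 to 3376 bp from each. IGF2BP1 had 3 of 8, and AFP none of 6.

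Of the epithelial genes 8 of 15 had a site, with GRHL2 at 5 of 27 and KRT8 at 4 of 11, and CDH1 had none of 3. Of the mesenchymal and invasion genes 8 of 16 had one. FN1, the matrix protein fibronectin, had 17 of 44 at scores from 1.46 to 13.1, and CDH2, N-cadherin, 5 of 19, while SNAI1 had none of 6. The FN1 sites lay 5171 to 233267 bp from the gene, with a median of 201910 bp. Those at 191127 bp or more were inside LINC00607, the lncRNA gene that also held sites given to MREG. Sites of the epithelial and the mesenchymal list were thus found at the same number of genes, 8 in each. They were 18.5% of the 119 distal summits of the epithelial list and 27.3% of the 128 of the mesenchymal list. Sites with H3K4me1 only were found at 11 and 9 genes of these lists.

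Of the YAP and TEAD targets 6 of 14 had a site and of the TGF-beta pathway 8 of 16. TGFB2, a ligand of that pathway that is in both lists, had 17 of 69, with scores from 2.47 to 52.6. SMAD3, which carries the signal to the nucleus, had 7 of 44, and 1 of them scored 101 at chr15:67107681, inside the gene, with H3K4me1 at 1705 bp, while another scored 41.2 and the remaining 5 scored 1.88 to 6.77. EDN1, the vasoconstrictor endothelin-1, had 9 of 31. Its highest, 47.9, lay 257 bp from a RefSeq start inside the gene, with H3K4me3 at 1034 bp. CCN1 and TGFBR2 had none, with 3 and 2 distal summits.

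Of the AP-1 factors 5 of 12 had a site, with JUN and FOSL2 at 3 each, of 18 and 17, and FOSL1 had none of 1. Of the receptor kinases and ligands 5 of 16 had one. MET, the receptor of hepatocyte growth factor, had 8 of 34, at scores of at most 8.07, EGFR had 2 of 19, and FGFR1 none of 1. Of the liver cancer drivers 5 of 17 had one. RPS6KA3, a kinase downstream of ERK, had 11 of 13 at scores from 3.67 to 27.3, and CTNNB1, beta-catenin, 2 of 11. ARID1A had none of 2. RPS6KA3 lies on the X chromosome, and none of its 13 distal summits had H3K4me1 only.

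Of the writers and readers of H3K4 and H3K27 marks 7 of 18 had a site, led by ZMYND8, a reader of acetylated chromatin, with 8 of 36 at scores of at most 7.53. KDM5B had none of 1. Of the core housekeeping genes 4 of 14 had one, among them YWHAZ with 2 of 25 and SDHA with 1 of 3, and B2M had none of 1.

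Lists of other tissues also had sites. Of the neuronal genes 4 of 10 had one, with MAP2 at 3 of 13 and CNTNAP2 at 3 of 4. Of the endothelial markers 6 of 10 had one, with CDH5 at 5 of 6 and PECAM1 at 2 of 22, and VWF had none of 2. The CDH5 sites lay 284145 to 391270 bp from the gene. Of the myeloid and lymphoid markers 1 of 10 had one: PTPRC, with 5 of 7, of which 4 lay 171971 to 176101 bp from the gene inside MIR181A1HG, the host gene of a microRNA, at scores up to 37.5. LUM, with 2 of 2, was the only one of 10 stellate cell and fibroblast markers with a site. COL1A2 and MARCO had none of 3 each. Nearest-gene assignment thus gave sites to genes of tissues other than liver, often over long distances.

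The labelled cell type was checked at the starts of marker genes, which for chromosome 8 are not in the promoter table. H3K4me3 with H3K27ac was found at 8 of 30 hepatocyte markers, among them APOH, TF, FGA, FGB and F2, and neither mark at 16, among them ALB, APOB and TTR. Both marks were found at 10 of 15 epithelial markers, such as CDH1, KRT8 and KRT18, at 4 of 10 endothelial markers, 2 of 10 myeloid and lymphoid markers and 1 of 10 stellate cell and fibroblast markers. Over all protein-coding genes in the promoter table, which leaves out chromosome 8, the share was 53.2%. The marker counts include genes of chromosome 8, such as GRHL2 with both marks. They were therefore not all taken at starts in that table, and the 53.2% is not a like comparison. Several defining hepatocyte genes, ALB among them, thus had neither mark at a start.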

How the data were processed

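ChIP-seq of 3 histone marks in MHCC97L cells was used, with 1 library per mark. The submitters' processing notes name the tools Bowtie, Picard, MACS2 and deepTools and the build hg38. For versions, thresholds and the control used, nothing was given in the sources used here. The authors deposited lists of 1 bp summits with a −log10 score, of either a p-value or a q-value, and scores were compared only within the H3K27ac list. From the files were computed distances, counts, medians and 95% Wilson intervals, with Python 3.11.15, numpy 2.4.6, pandas 2.3.3 and statsmodels 0.14.6. Summits on unplaced contigs and chromosome Y were left out (273 of 70301 H3K27ac summits), as was chromosome 13, where 98 H3K4me1 summits were called for 920 H3K27ac summits. Gene limits and start windows were RefSeq GRCh38.p14, whose coordinates are those of hg38. The gene limits carry no strand, and the start windows none of chromosome 8. Distances were checked on simulated positions. The genes named are the 12 highest-scoring sites, the 10 highest-scoring far from H3K4 summits, and the 8 longest runs. Further ones are the 10 genes with most sites by nearest boundary and by position inside, and 5 sites on each side of the limit. From each list came the 2 genes with most sites. The first gene of a list with H3K4me1 at its distal summits but no H3K4-free site was also taken. Up to 10 genes whose sites all qualified were added. A few genes that these rules select are not reported here. The start sites and their motifs were added after values were seen. The members and lists were chosen with earlier results of these data known. The alternatives changed the window, the distal limit, score minimums and the regions used. Base composition and motifs around the sites themselves were not analysed here, since no genome sequence was used.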

Additional observations from a re-analysis of the deposited data

Results flagged for a closer look

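Sites outside the comparisons also lacked H3K4 summits. On chromosome 13, which was left out, 415 of 546 distal H3K27ac summits (76.0%) had neither H3K4 mark within 1000 bp, 49 had H3K4me1 only and 81 H3K4me3 only. That chromosome had 0.107 H3K4me1 summits per H3K27ac summit, below the 0.870 to 1.54 of the others, and the median score of the 415 was 6.74. On 17 unplaced contigs, 21 of 74 H3K27ac summits (28.4%) had neither mark, with no limit on the distance to genes.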

How the results depend on the processing

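The share of distal summits that were H3K4-free was 38.9% with a 500 bp window and 13.6% with 2000 bp, 17.9% and 11.4% for H3K27ac scores of at least 5 and 10, 27.5% with H3K4 scores of at least 3, and 23.8% with chromosome 13. The share inside protein-coding genes was 50.3% and 42.3% with the 500 and 2000 bp windows and 44.9% and 47.1% at scores of at least 5 and 10. The share with no other H3K27ac summit within 12000 bp was 10.9% and 22.6% with these windows, 13.4% and 15.7% with distal limits of 1000 and 5000 bp, 23.8% and 40% at scores of at least 5 and 10, and 16.4% with close lower-scoring summits dropped. In the score and dropping alternatives, summits were taken out before distances were measured, so neighbours were removed too. Those values do not show that higher-scoring sites were more isolated. The share with no H3K4 summit within 10000 bp was 14.6% and 41.5% with these windows, 22.4% and 27% with these distal limits, 29.6% and 33.0% at these scores, 26.0% with H3K4 scores of at least 3, and 25.8% with chromosome 13. The median score was 5.50 and 5.37 with these windows, and 7.63 and 16.7 at these scores. Genes with a site fell to 1281 at scores of at least 10, and list genes numbered 58 with the 2000 bp window and 59 and 32 at these scores. In alternatives chosen after seeing the data, leaving out windows with at most 5 H3K4me1 summits gave 21.4% of distal summits, 47.7% inside genes, 12.3% isolated, 19% far from H3K4 summits and a median score of 4.58, and leaving out sites near any RefSeq start gave 44.9% inside genes. The remaining 38 values moved by less than their counting interval or 1.5 times. The window does not change which sites lie over 10000 bp from an H3K4 summit. With the windows, that share moved only through the number of H3K4-free sites, 16888 with 500 bp and 5930 with 2000 bp. The cause of the other shifts was not tested, beyond that score minimums leave fewer sites and fewer neighbours. No paired analysis was possible because each mark had 1 library. Without read depth or replicates, a missing H3K4 summit cannot be told apart from one below the calling limit.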
